A study of Mus musculus with 4 samples.

Results

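Stretches of the mouse genome in which NR6A1 peaks of one replicate followed each other with no peak of the other replicate among them are described here. Peaks of the 2 lists that overlapped by at least 1 bp were merged into regions, and each region was classed as found in both lists (a shared region), in replicate 1 only or in replicate 2 only. The members are the regions in runs of 8 or more consecutive replicate 1 only regions on 1 chromosome. There were 122 such runs, and they held 1254 of 28444 regions. The members were chosen by the measured peak positions of both lists, so the absence of replicate 2 peaks inside the runs is a property of the choice. No test was made of it, and the values below are descriptions of 1 pair of libraries.

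The study mapped sites of NR6A1 by chromatin immunoprecipitation followed by sequencing (ChIP-seq) in monoclonal, immortalized mesenchymal stem cells of C57BL/6 mice. The cells carried floxed, intact Dicer alleles (Dicer f/f, called Dicer WT) and grew under puromycin. In both libraries used here, NR6A1 with Flag and HA tags was expressed from a retrovirus (n = 2), and an anti-HA antibody recovered the bound fragments after 10 min in formaldehyde. The 2 libraries of cells with the vector, made with the same antibody and also Dicer f/f, were not analysed here, so no background of the antibody stands beside the runs. The labels do not say whether the 2 replicates came from separate cultures, and the tagged protein was expressed in addition to any NR6A1 of the cells themselves.

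NR6A1, also called germ cell nuclear factor, is an orphan nuclear receptor. It binds DNA as a homodimer at direct repeats of the nuclear receptor half-site with no spacer, and it is known for repressing its target genes, among them the pluripotency gene Pou5f1 as embryonic cells differentiate. Per the series title, the microRNA let-7 represses Nr6a1. Peaks of a sequence-specific factor are usually narrow and lie apart, so that each can be listed on its own. A run is a neighbourhood of separately listed peaks. The gap between neighbours in a run had a median of 19.4 kb and a minimum of 0.004 kb. Whether neighbouring peaks belong to a broader domain was not tested, since the lists give no reads. Genes and sequences at these positions were not analysed here.

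Replicate 1 had 21507 peaks and replicate 2 had 16160. Their regions comprised 9009 in both lists, 12317 in replicate 1 only and 7118 in replicate 2 only. Replicate 1 only regions were therefore 43.3% of all regions, and 57.8% of those with a replicate 1 peak. The members were 10.2% of the replicate 1 only regions (95% Wilson interval 9.66 to 10.7%, counting error only) and 4.41% of all regions. Each member consisted of a single replicate 1 peak. Read depth is unknown from the lists. The score of a peak is the authors' MACS score, taken as a log-transformed p-value, which is higher for smaller p-values and depends on the depth and background of its own library.

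The runs were short stretches for the most part, with a few long ones. Of the 122 runs, 41 held exactly 8 regions and 90 held 8 to 10, while 23 held 12 or more and 11 held 15 or more. The runs spanned 79.4 Mb together. The median run was 379 kb long (quartiles 216 and 711 kb), the shortest was 55.3 kb and the longest 8882 kb. Runs with the same number of regions differed widely in span, since runs of 8 reached from 55.3 kb to over 1 Mb. The median span was 338 kb in runs of 8 to 11 and 555 kb in runs of 12 to 27.

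**Figure D1:**
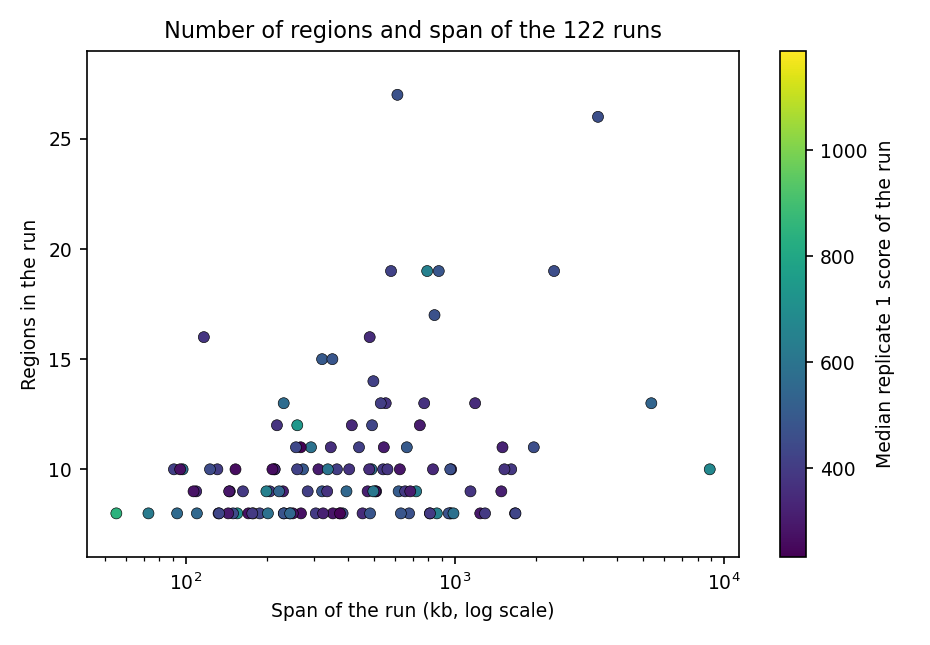
Each point is 1 of the 122 runs, with its span in kb on a log axis, its number of regions on the vertical axis and its median replicate 1 score as colour. Most runs held 8 to 10 regions, and the run of 27 and the run of 26 stood apart from the next, at 19.

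The spacing of peaks inside the runs was close to that elsewhere. The gap between neighbouring members had a median of 19.4 kb (quartiles 5.70 and 58.9 kb, 1132 gaps). All other neighbouring regions had a median gap of 22.3 kb (5.78 and 67.3 kb, 27287 gaps), and neighbouring replicate 1 only regions outside the runs 22.1 kb. Neighbours that were both found in both lists lay closer, at a median of 13.7 kb. A gap of at most 10 kb separated 36.3% of neighbouring members (33.6 to 39.2%) and 33.7% of the other neighbours (33.1 to 34.2%), so the intervals overlapped. Runs of exactly 8 regions had a median density of 26.2 regions per Mb of span (quartiles 9.88 and 45.2), and all stretches of 8 consecutive regions of any kind had 24.8 (12.9 and 45.7). By this measure the runs were about as dense as stretches of any kind.

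A few runs were long because they crossed an empty stretch. In 34 runs the widest gap between neighbours took more than 50% of the span, and in 4 it exceeded 1 Mb. The longest run, on chromosome 6 at 73178344 to 82060800 (mm9, as are all positions here), held 10 regions, and 98.0% of its span was a single gap of 8706 kb with no peak in either list. The run of 13 regions on chromosome 5 at 67208452 to 72595395 likewise held a gap of 4570 kb. A gap over 1 Mb was also found in a run on chromosome 12 at 39580929 to 41204655. The fourth lay in a run on chromosome 14 at 59124630 to 60809072. These 4 runs were singled out after their values were seen. The 15 runs longer than 1 Mb made up 45.9% of the total span, so the span is a poor measure of how much peak signal a run holds.

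The run with the most regions, 27, lay on chromosome 10 at 83111259 to 83724382, over 613 kb with 44.0 regions per Mb. Its scores ran from 206 to 2064 with a median of 473, and 6 of its members scored 1000 or more. No gap in it exceeded 78.7 kb, or 12.8% of the span, the smallest such share among the 122 runs. High and low scores alternated along it. The strongest members lay 137, 223, 278, 352, 418 and 494 kb from its start, with scores of 1816, 2064, 1527, 1742, 1106 and 1424. On one side the run ended at a replicate 2 only peak 104 kb away with a score of 211, near the minimum of the list. On the other side, 24.3 kb away, lay a region in both lists with scores of 833 in replicate 1 and 409 in replicate 2.

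The run of 26 regions, also on chromosome 10, was of another kind. It stretched from 103079146 to 106491675, over 3413 kb, with 7.62 regions per Mb. Its scores ran from 211 through a median of 462 to 3100. That value is held by 239 replicate 1 and 187 replicate 2 peaks and is not the highest, since 26 and 24 peaks score above it, up to 3218.29 and 3219.64, but no member of a run does. Scores of 3100 and more are not read as an order of strength. The peak at 3100 lay at 105549954 to 105550839 and had neighbours of 555 and 264 within 3 kb. This run was bounded on both sides by strong regions of both lists. The one before it scored 3100 in replicate 1 and 2062 in replicate 2, and the one after it 593 and 2159. The nearest replicate 2 peaks stood 644 kb before and 117 kb after the run, so 4174 kb held none of that list.

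The densest runs were compact clusters of peaks. On chromosome 10 at 5789120 to 5844424, 8 regions lay within 55.3 kb, or 145 regions per Mb, the highest density of any run. In order along the chromosome their scores were 1104, 587, 1565, 436, 221, 1584, 1822 and 217. The first 4 lay within 5 kb of each other and the last 4 within 16 kb, with an empty stretch of 34.7 kb between the groups. Beyond its end, 20.2 kb away, was a region of both lists with a score of 3100 in replicate 1 and 478 in replicate 2. Both the run and this neighbour thus held strong replicate 1 peaks, and the neighbour's replicate 2 peak was moderate. The run itself held no replicate 2 peak by the choice of the runs. On its other side, a replicate 2 only peak with a score of 266 stood 63.25 kb away.

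The run on chromosome 15 at 6969590 to 7086557 came second in density, with 16 regions in 117 kb or 137 per Mb. Its scores ran from 204 through a median of 380 to 3100. The strong members lay at one side: the first 3 scored 1160, 1708 and 3100, and of the other 13 a single one, 99.1 kb from the start, exceeded 1000, with 1205. The peak at 3100 lay at 6984604 to 6985918 and was 1315 bp wide. A replicate 2 only peak with a score of 468 stood 1.77 kb before the run, and another with 342 stood 77.0 kb after it. The replicate 2 list therefore had peaks immediately beside the strongest part of the run.

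**Figure D2:**
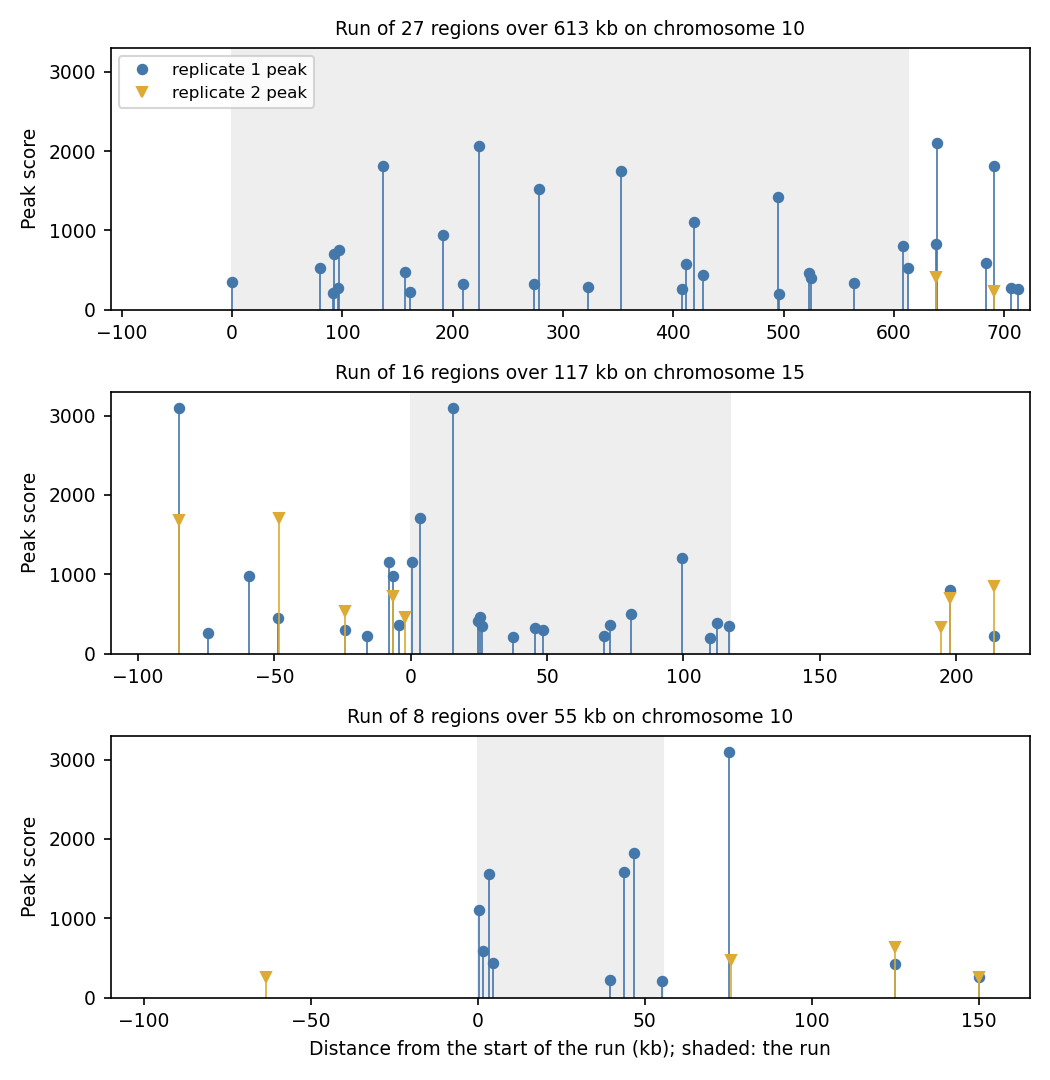
Peak scores (vertical axis) of both replicates along 3 runs, by distance in kb from the start of the run, with the run shaded and up to 100 kb shown on either side. Each shaded stretch holds replicate 1 peaks (circles) alone. Replicate 2 peaks (triangles) appear only outside it, by the choice of the runs, in part at positions where replicate 1 also had a peak.

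Other dense runs were shorter in number. One on chromosome 2 at 148100324 to 148190875 had 10 regions in 90.6 kb and scores of 239 to 1236, with the highest at its last member. One on chromosome 13 at 49561847 to 49634642 had 8 regions in 72.8 kb, with 2736 at its first member and no other above 787. One on chromosome 17 at 46030606 to 46126102 had 10 regions in 95.5 kb, a median score of 270 and a single strong member at 2445. In each of these 3 runs 1 strong peak was accompanied by weaker ones.

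The 5 runs with the highest median scores, which include the densest run above, held 2 to 6 members at 1000 or more. The highest median, 1187, belonged to 8 regions on chromosome 10 at 56900293 to 57078842. Their scores in order were 1323, 1155, 238, 2517, 303, 1220, 456 and 3100, the last of them at 57077590 to 57078842. Replicate 2 only peaks with scores of 450 and 345 stood 19.5 and 118 kb from its ends, so no shared region bounded it. On chromosome 2 at 139532231 to 139746064, 10 regions had a median of 955 and a highest score of 2334, and the nearest replicate 2 peak before them was 821 kb away. On chromosome 3 at 83255077 to 83515278, 12 regions had a median of 741, and 6 of them scored 1000 or more. That run lay between strong shared regions, with replicate 2 scores of 2589 at 4.25 kb and 1948 at 28.7 kb. A run on chromosome 2 at 125162961 to 125318727, with 8 regions and a median of 699, had 2 members at 1000 or more. It had 24 regions of both lists within 500 kb, the most of any run.

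The rest of the 10 runs with the most regions lay on 7 chromosomes. A further run of 15 regions, on chromosome 10 at 7711408 to 8062786, was left out because ties went to the denser run. It had a median score of 489 and a highest score of 3100. A run of 19 regions on chromosome 11 at 44789994 to 45581031 had scores of 212 to 3002 with a median of 648 and 6 members at 1000 or more. Another of 19 on chromosome 6 at 65783879 to 66364386 had a median of 422 and 1 member at 3100, at 65962352 to 65963321. The run of 19 on chromosome 1 at 138593078 to 139466545 had a median of 486 and a highest score of 2403. That on chromosome 8 at 42638126 to 44981445, also of 19, had 458 and 1500. A run of 17 on chromosome 14 at 78016985 to 78859206 had none at 1000 or more and a highest score of 939. On chromosome 3 at 143615781 to 144099412, 16 regions had a median of 348, and on chromosome 9 at 60053498 to 60375285, 15 had a median of 499 with none below 328. Of the 11 runs with 15 or more regions, the run of 17 alone held no member at 1000 or more.

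Members tended to score above other replicate 1 only regions and below regions of both lists. Their median replicate 1 score was 410 (quartiles 272 and 698), against 359 (258 and 592) for the 11063 other replicate 1 only regions and 528 (325 and 961) for regions in both lists. A score of 1000 or more was found in 185 members or 14.8% (12.9 to 16.8%), against 16.0% of all regions with a replicate 1 peak. The share was 10.0% (9.47 to 10.6%) of other replicate 1 only regions and 23.6% (22.7 to 24.5%) of regions in both lists. Scores of 3000 or more were found in 13 members or 1.04% (0.607 to 1.77%), against 1.31% of all regions with a replicate 1 peak, 0.560% of other replicate 1 only regions and 2.28% of regions in both lists. The median was higher in the runs than among other replicate 1 only regions on 15 of 19 autosomes, and lower on chromosomes 12, 15, 16 and 17. It stood at 300.0 against 414 on chromosome 16 and at 349 against 367 on chromosome 15, so the difference in medians over all members, 50.7, did not hold on every chromosome. Peaks of 1 library are not replicates, so no p-value is attached.

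**Figure D3:**
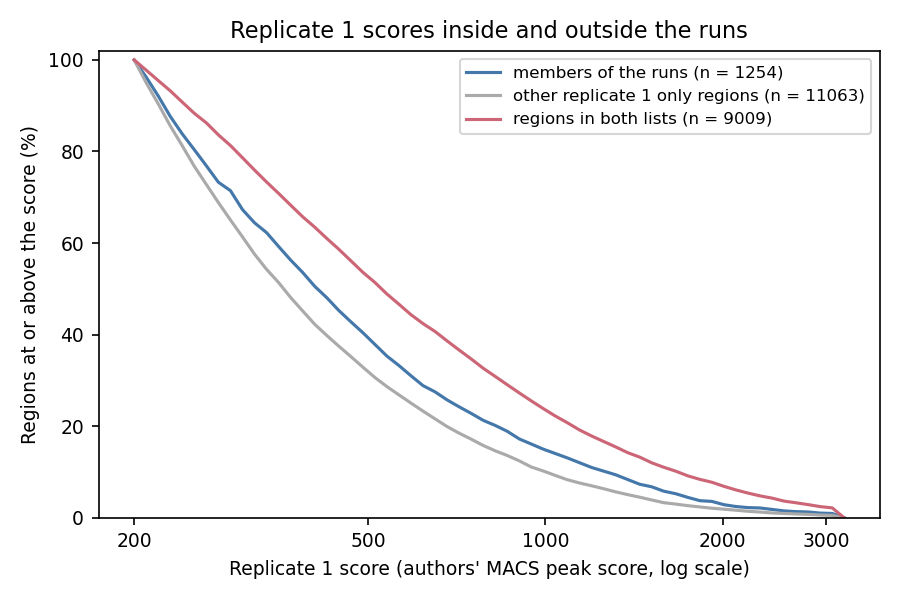
Share of regions (vertical axis, %) at or above each replicate 1 score (horizontal log axis) for the 1254 members, the 11063 other replicate 1 only regions and the 9009 regions in both lists. The members lie between the others, with 14.8% at 1000 or more.

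The score also went with the length of a run of replicate 1 only regions, below the minimum of 8 as well. Replicate 1 only regions standing alone between regions with a replicate 2 peak had a median of 337 and 7.94% at 1000 or more (7.04 to 8.94%). In runs of 2 to 3 it was 359 and 10.4% (9.55 to 11.3%), in runs of 4 to 7 it was 380 and 11.5% (10.4 to 12.6%), in runs of 8 to 11 it was 394 and 13.5% (11.4 to 15.9%), and in runs of 12 to 27 it was 440 and 17.8% (14.2 to 22.1%). Just outside the minimum, the 56 runs of exactly 7 had a median score of 405 and a median span of 284 kb. Just inside it, the 41 runs of exactly 8 had 393 and 305 kb. The values on either side of the minimum were thus close.

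Pooled over the runs, the outer members scored somewhat lower. The first and last members had a median of 374 and the second from either end 372, whereas the third from either end had 451 and those farther inside 431. The quartiles overlapped widely, at 255 and 648 for the outermost against 283 and 753 for those farthest inside. Of the 122 runs, 92 held a member at 1000 or more and 30 held none. A member at 3100 was present in 11 runs, and 1 of these, on chromosome 14 at 23408774 to 23611196, held 2 of the 12 such members. High scores were thus spread over many runs and did not gather in a few.

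The peaks of the runs were of ordinary width for their score. The median width was 531 bp in members, 515 bp in other replicate 1 only regions and 574 bp in replicate 1 peaks of regions in both lists. Since width increases with the score, it was also taken within bands of the score. From 200 to below 400 the medians were 464 bp in members and 465 bp in other replicate 1 only regions, from 400 to below 1000 they were 591 and 584 bp, and at 1000 or more 808 and 777 bp. In the last band the quartiles were 690 and 971 bp against 677 and 945 bp.

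Runs were found on every autosome and in unequal numbers. Chromosome 10 had 18 runs with 202 members, chromosome 2 had 14 with 145 and chromosome 14 had 11 with 110. These 3 chromosomes, picked because they had the most runs, held 43 of the 122 runs. They held 36.4% of the members (33.8 to 39.1%) and 21.3% of the replicate 1 only regions (20.6 to 22.1%). The interval for members is too narrow, since it counts them singly although they come in runs of 8 or more. On chromosome 14, 21.0% of the replicate 1 only regions lay in runs, and on chromosome 10 it was 202 of 1010. Chromosome 12 had a like share of replicate 1 only regions, 48.8% of its regions against 48.0% on chromosome 10, but 12.2% of them in runs. At the other end, chromosome 13 had 1 run of 8 regions among 592 replicate 1 only regions, and chromosome 4 had 3 runs with 4.43% in them. Chromosome X had none, with 159 replicate 1 only regions and at most 7 in a row. Replicate 1 only regions were 54.0% of all regions on chromosome 14, the highest share of the autosomes, and 34.9% on chromosome 4, the lowest.

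**Figure D4:**
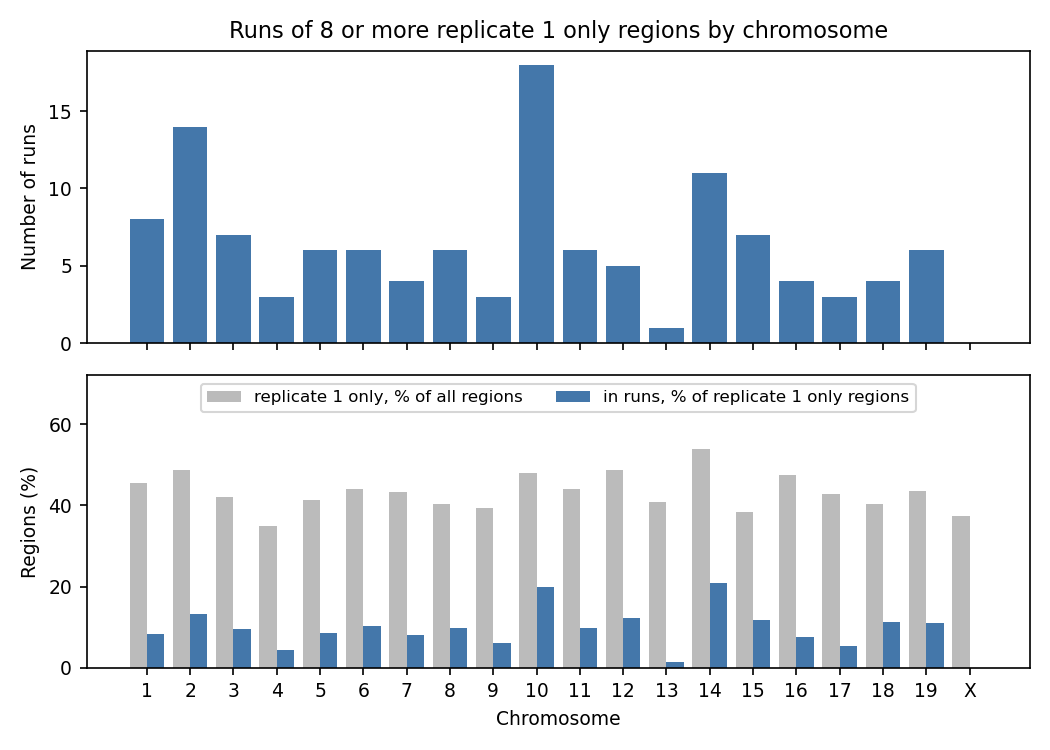
Number of runs by chromosome (upper panel) and, below, replicate 1 only regions as a percentage of all regions (grey) and members as a percentage of replicate 1 only regions (blue). Chromosomes 10, 2 and 14 held 18, 14 and 11 runs, and X held none.

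Most runs lay far from each other. Neighbouring runs on a chromosome were a median of 9887 kb apart, and 12 of 103 neighbouring pairs were within 1 Mb. A single pair, on chromosome 14 at 59124630 to 61609908, was parted by 1 region alone, a replicate 2 only peak with a score of 223. At most 4 runs lay within 10 Mb. On chromosome 10, 4 runs with 55 members lay between 75021381 and 83724382 and another 4 with 37 members between 38983601 and 45533047. On chromosome 15, 4 runs with 35 members lay between 91909435 and 99175869. These windows were chosen after the counts were seen.

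The stretches next to the runs held peaks of both replicates. In the 500 kb on either side of each run, 36.5% of the regions were in both lists (34.6 to 38.4%), 39.5% in replicate 1 only (37.6 to 41.5%) and 24.0% in replicate 2 only (22.3 to 25.7%). Over all regions 31.7% were in both lists and 43.3% in replicate 1 only. The flanks include the regions that end the runs, each of which has a replicate 2 peak. Regions with a replicate 1 peak numbered 15.2 per Mb there and 15.8 per Mb of span inside the runs, or 19.6 inside where a gap over 1 Mb ends a run (chosen after seeing the data). Regions with a replicate 2 peak numbered 12.1 per Mb there and 0 inside, the latter by the choice of the runs. Of the 122 runs, 119 had a shared region within 500 kb and 80 had 5 or more, and 43 of the 964 replicate 1 only regions counted beside runs were members of another run. A run's span starts and ends at a member, which raises its density, whereas the flanks are fixed windows. Gaps over 1 Mb were also not taken out of the flanks. The densities inside and beside the runs are therefore not ranked. The flanks were not stretches of replicate 1 only.

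**Figure D5:**
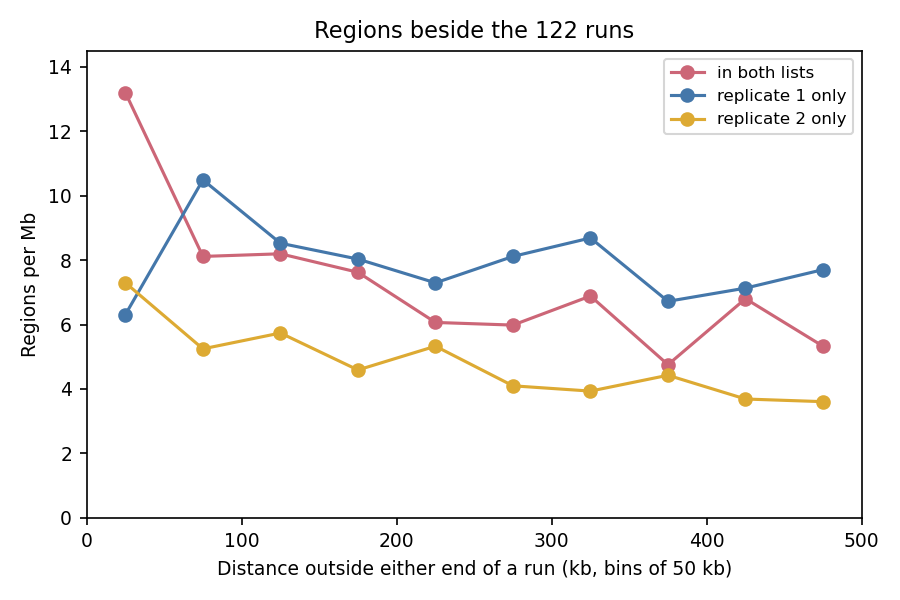
Regions per Mb (vertical axis) in both lists, in replicate 1 only and in replicate 2 only, by distance outside either end of a run in bins of 50 kb, over 122 runs. The first bin holds most of the regions that end the runs and so has the most regions of both lists, 13.2 per Mb, against 8.11 from 50 to 100 kb and 5.33 from 450 to 500 kb.

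The regions that ended the runs were of ordinary strength in replicate 2. Of 244 ends, 150 or 61.5% were at a region of both lists (55.2 to 67.4%), and 94 at a replicate 2 only region. Among all 16127 regions with a replicate 2 peak, 55.9% were in both lists, so the interval included the share over all. The replicate 2 score at the ends had a median of 399 (quartiles 271 and 659), against 394 (270 and 681) over all of these regions, and 13.1% of the ends scored 1000 or more (9.45 to 17.9%), against 2264 of the 16127. A region of both lists bounded 49 runs on both sides, a replicate 2 only region bounded 21 on both sides, and 52 had one of each. The nearest replicate 2 peak lay a median of 33.7 kb from an end. Strong and weak replicate 2 peaks alike ended the runs.

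Shared regions close to the runs scored higher in replicate 1 than in replicate 2 more often than shared regions far away did. The rule used where listed peaks lie. No listed score was below 200 in either replicate, so being listed goes with the score. The scores also come from the same libraries, so this comparison is not independent of the choice of the runs. Within 100 kb of a run, the replicate 1 score was the higher one in 163 of 260 shared regions or 62.7% (56.7 to 68.3%). At 500 kb or more, or with no run on the chromosome, it was so in 4066 of 8148 or 49.9% (48.8 to 51.0%). The median log2 ratio of the replicate 1 score over the replicate 2 score was 0.23 within 50 kb (161 regions, quartiles -0.49 and 1.12), 0.18 from 50 to 100 kb (99 regions, -0.25 and 0.93), 0.06 from 100 to 500 kb (601 regions, -0.61 and 0.87) and 0.00 beyond (-0.65 and 0.70). The median replicate 1 score was 591 within 100 kb and 524 far away, and the median replicate 2 score 497 and 513. Scores of the libraries are not on a common scale of depth, so the ratio is read between distances and not against 0.

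This difference was seen on most chromosomes and beside a majority of the runs, with wide scatter. The median log2 ratio was higher within 100 kb than at 500 kb or more on 14 of 18 autosomes with shared regions that close. Chromosomes 1, 3, 4 and 12 went the other way, at 0.11 against 0.14 on chromosome 1 and -0.44 against -0.06 on chromosome 3. The largest number of close regions, 51, was on chromosome 2, with 0.17 against 0.08, and chromosome 10 had 0.69 over 30 regions against 0.09. Without chromosome 10 the replicate 1 score was higher in 60.9% of 230 close regions (54.4 to 66.9%) and in 49.6% of the far ones (48.5 to 50.8%). Of 94 runs with a shared region within 100 kb, 62 or 66.0% had a higher median log2 ratio there than the shared regions of the same chromosome at 500 kb or more (55.9 to 74.7%). Intervals cover counting error over regions, which share their libraries, and no replicate error can be given.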

How the data were processed

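Peak lists of the 2 NR6A1 libraries were used, 1 list for each replicate. Per the submitters' processing notes, Bowtie 0.12.7, MACS and the build mm9 were used, with no roles given. The MACS version, the control library and the peak threshold are not given in the sources used here. From its range, the deposited score of each peak was read as a log-transformed p-value of MACS, and it was used to describe peaks within a list. Merging and runs were computed in Python 3.11.15 with numpy 2.4.6 and pandas 2.3.3, with the same region counts from bedtools 2.31.1, and were tested on simulated lists. Positions count the first base as 1. Wilson intervals are at 95% (scipy 1.17.1). No test was run. The named runs are the 10 with the most regions, the 5 densest and the 5 with the highest median score. The members, this rule, the score limits of 1000 and 3000 and the distances were chosen with earlier results of these data known. The gene and sequence tables at hand are of build GRCm38, so genes and motifs were not analysed here.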

Additional observations from a re-analysis of the deposited data

How the results depend on the processing

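Across results, 11 alternatives were tried, 1 of them (a gap over 1 Mb ends a run) chosen after seeing the data. Of 66 values, 43 stayed within 1.5 times the reported count or span or the binomial 95% interval of the reported median. The others comprised 23 that moved and 0 that reversed, a label that only the difference in median score could receive. Keeping autosomes alone could not change the runs, since all of them lay on autosomes. As reported there were 122 runs, 1254 members and 79.4 Mb. A minimum of 6 regions gave 287 runs, 2300 members and 155 Mb, a minimum of 10 gave 58, 719 and 49.1 Mb, and a minimum of 12 gave 23, 360 and 22.0 Mb, with a median score of 440 and a difference of 78.2 from other replicate 1 only regions, against 410 and 50.7 as reported. Skipping replicate 2 only regions gave 199 runs, 2126 members and 190 Mb at a median of 18.4 regions per Mb, against 26.5. With replicate 1 cut to the size of replicate 2 by score there were 45 runs, 467 members and 35.5 Mb, with a median score of 537. In the upper 50% of each list there were 70 runs and 713 members, with a median score of 708 and 13.4 regions per Mb. The number of runs thus changed with the minimum length, by construction. It also changed with the cuts of the lists by score and with the skipping of replicate 2 only regions. Each alternative kept members above other replicate 1 only regions in median score. No paired analysis was possible because 1 list for each of 2 samples of 1 group was used. Leaving out a replicate leaves no runs to define. The lists give no reads, so a missing replicate 2 peak cannot be told from one just under the threshold.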

Other observations

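Runs of replicate 2 only regions were also present. By the same minimum of 8 there were 12, with 105 regions, on 6 autosomes and X. Their number and lengths are not compared with the 122 runs of replicate 1, since the lists differ in size. With replicate 1 cut to the number of replicate 2 peaks by score, 45 runs of replicate 1 only regions were left. Runs of replicate 2 only regions were not recounted after this cut, so the 45 and the 12 are not compared either. The 12 runs of replicate 2 only regions held 8 to 11 regions over a median of 663 kb, at a median of 14.7 regions per Mb. The median replicate 2 score was 344 in them and 314 in other replicate 2 only regions, and 7.62% of their regions scored 1000 or more (95% Wilson interval 3.91 to 14.3%) against 3.88% (3.45 to 4.36%). Chromosome 8 held 4 of these runs and chromosome 7 held 3, of which the one at 111681650 to 112607495 had the highest median score, 644, and a highest score of 2190. The run on X, at 16133976 to 16595387, held 10 regions, whereas X had no run of replicate 1 only regions. Regions of both lists also followed each other in 7 runs of 8 or more.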
